A study of Mus musculus with 2 samples.

Results

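Dividing cells switch genes on in waves, and the 37 genes described here fall in 2 of them. The 15 S phase genes are Mcm2, Mcm3, Mcm4, Mcm5, Mcm6, Mcm7, Pcna, Tyms, Rrm1, Rrm2, Gins2, Cdc6, Cdc45, Ung and Slbp. The 22 mitosis genes are Mki67, Top2a, Cdk1, Ccnb1, Ccnb2, Ccna2, Birc5, Tpx2, Cenpf, Cenpe, Ube2c, Cdc20, Aurka, Aurkb, Anln, Prc1, Pimreg, Cdca8, Plk1, Bub1, Kif11 and Pbk. They were listed by name, with earlier results of these data known, and all 37 are among the 17775 genes of the deposited count matrix.

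The samples were tumours grown from 200000 implanted MC38 cells, a mouse colon carcinoma line, in C57BL/6 mice whose age the labels do not give. From day 7 the mice received either DFMO or water by gavage for 14 days, and the labels disagree on how many times a day. DFMO (difluoromethylornithine) irreversibly blocks ornithine decarboxylase, which starts polyamine synthesis. The tumours of 4 mice per group were pooled, enriched for immune cells on Ficoll and sequenced as 1 single-cell library per group, so no value below has a replicate, and no test between the groups is possible. All intervals are 95% intervals that cover counting error only, and they do not cover the spread between mice.

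In G1, E2F factors freed from the retinoblastoma proteins turn on the genes that load and fire replication origins and supply nucleotides. Later, the MuvB complex with B-MYB and FOXM1 turns on the genes of chromosome condensation, spindle assembly and exit from mitosis. Tumour-infiltrating lymphocytes, some dendritic cells and the cancer cells all divide, whereas naive lymphocytes and most monocytes rest in G0.

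The promoters of both waves are shown because the members of each list are reported together below and the lists differ in the letters printed in capitals. RefSeq windows of 300 bases on GRCm38.p6, from 250 bases before the start to 50 after it, were found for 30 of the 37 members. Mcm4, Gins2, Ccna2, Tpx2, Aurkb, Pimreg and Pbk had no entry. The letters TTTGAA, the core of the element called CHR through which MuvB binds mitosis promoters, were searched on both strands. They occurred in 13 of the 17 mitosis genes with a window (76.5%), in 2 of the 13 S phase genes (15.4%) and in 17.9% of all windows. The E2F site was searched, also on both strands, as TTTCCCGC, TTTCGCGC, TTTGCCGC and TTTGGCGC. One of these occurred in 5 of the 13 S phase genes (38.5%: Mcm3, Mcm5, Mcm6, Mcm7 and Cdc6), in 1 of the 17 mitosis genes (Cdk1) and in 2.26% of all windows. The letters CCAAT were searched as well and were common in both lists. They occurred in 10 of the 13 S phase genes (76.9%), 15 of the 17 mitosis genes (88.2%) and 37.4% of all windows. A match is a string of letters, not a measured binding site. The stretches below end at or before the RefSeq start and are written 5′ to 3′ on the gene's strand, with CHR and E2F matches in capitals. The mitosis examples are Mki67 (chr7:135716457-135716517, minus strand), Top2a (chr11:99024192-99024252, minus), Cdk1 (chr10:69352913-69352967, minus), Ube2c (chr2:164769860-164769920, plus) and Cdc20 (chr4:118437344-118437401, minus). The S phase examples are Mcm5 (chr8:75109320-75109382, plus) and Mcm6 (chr1:128359730-128359792, minus).
Mki67: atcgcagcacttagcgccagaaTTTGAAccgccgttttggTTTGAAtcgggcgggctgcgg
Top2a: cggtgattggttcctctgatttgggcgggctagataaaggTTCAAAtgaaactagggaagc
Cdk1: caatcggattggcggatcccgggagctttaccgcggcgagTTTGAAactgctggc
Ube2c: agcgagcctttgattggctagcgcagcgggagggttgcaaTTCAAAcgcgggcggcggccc
Cdc20: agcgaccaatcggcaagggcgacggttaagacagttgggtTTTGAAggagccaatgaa
Mcm5: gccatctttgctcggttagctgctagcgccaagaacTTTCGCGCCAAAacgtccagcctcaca
Mcm6: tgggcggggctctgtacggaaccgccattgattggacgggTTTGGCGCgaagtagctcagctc
In Top2a and Ube2c the CHR letters read on the opposite strand, and in Mcm5 a pair of E2F words overlaps.

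After filtering, 4421 DFMO cells and 6150 water cells remained, with medians of 2208 and 6334.5 UMIs (unique molecular identifiers, each counting 1 captured RNA molecule) per cell. The libraries shared 37 cell barcodes. The cells were clustered without 288 cell cycle genes, among them all 37 members, so that a cell's class did not rest on them. The classes held, in DFMO and water, 1644 and 1061 T cell-like, 206 and 355 NK cell-like, 1519 and 63 B cell-like, 275 and 1529 myeloid-like, and 116 and 904 fibroblast-like cells. Levels are UMIs of a gene, or summed over a list, per 1000000 UMIs of the class (CPM). A further 570 and 1997 cells lay in 4 clusters with Ptprc, the leukocyte gene CD45, at 2.38 CPM or less. The epithelial markers that would name them as tumour cells summed to 3.59 CPM or less in these 4 clusters, so they are called Ptprc-low. Their summed Y-linked genes were also low (1.28 CPM or less, against 72 to 231 CPM in the named leukocyte clusters). The fibroblast-like cluster was near them, at 1.95 CPM, and whether its cells come from the host or the tumour was not settled.

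In the sums the S phase and mitosis genes ordered the cell classes differently. Both lists were highest in a cluster of 25 germinal centre-like B cells led by Mef2b and Rgs13, all from the DFMO library: 3713 CPM for the S phase genes and 5113 CPM for the mitosis genes. T cells outside the naive-like clusters were at 1705 (DFMO) and 1747 CPM (water) for S phase and 2083 and 2067 CPM for mitosis. NK cells were below these T cells in DFMO and above them in water on both lists, at 1622 and 1837 CPM for S phase and 1278 and 2245 CPM for mitosis. In these sums Ptprc-low cells reached the mitosis level of the T cells outside the naive-like clusters, 1978 and 2162 CPM. Their S phase genes were at only 825 and 837 CPM. With each cell weighted alike, Ptprc-low cells were above those T cells in mitosis genes, at 2029 and 2016 against 1006 and 1211 CPM. Their S phase genes were then at 835 and 807 against 1140 and 1201 CPM. Myeloid cells were low on both lists (S phase 535 and 411 CPM, mitosis 564 and 528 CPM). The main B cell cluster of the DFMO library was lowest of these in mitosis genes, at 153 CPM, with 494 CPM of S phase genes.

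**Figure D1:**
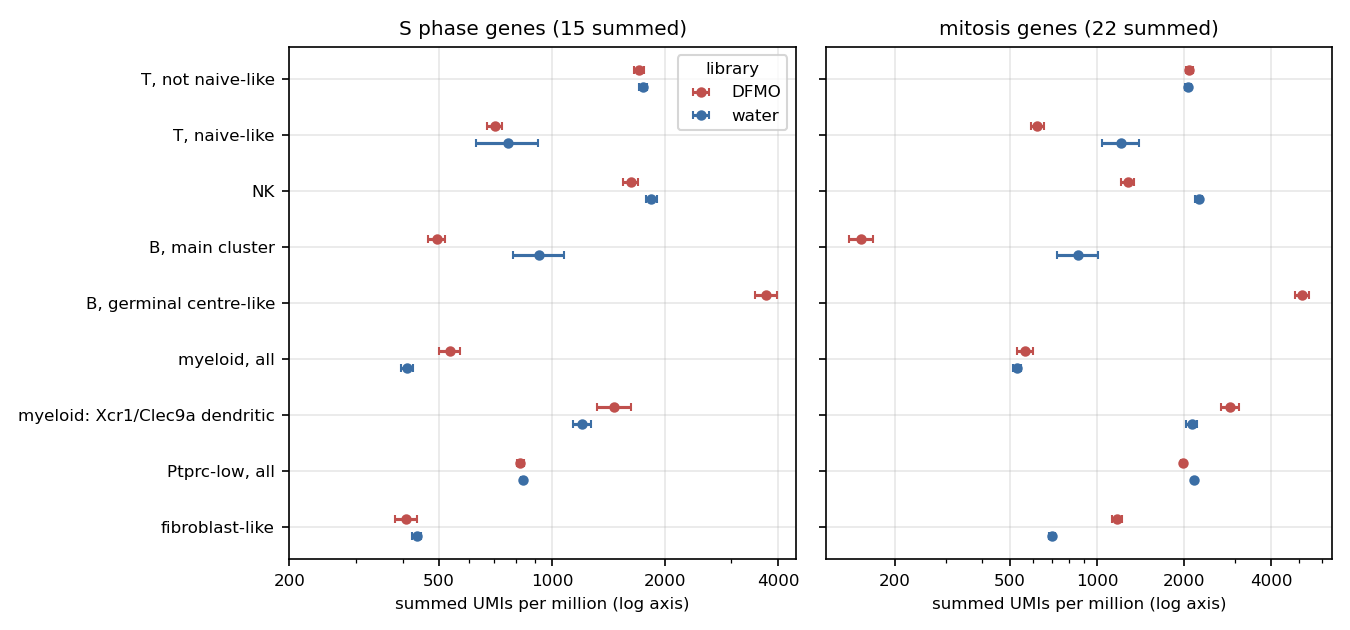
Summed CPM of the 15 S phase genes (left) and the 22 mitosis genes (right) on log axes, by cell class and library; points are sums over cells and bars 95% Poisson intervals of the counts. In these sums Ptprc-low cells lie near T cells outside the naive-like clusters in mitosis genes (1978 and 2162 CPM) but not in S phase genes (825 and 837 CPM).

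In summed UMIs, Ptprc-low cells had lower levels of most S phase genes than T cells outside the naive-like clusters, in both libraries. Gene by gene, this comparison was not made with each cell weighted alike. Of 15 S phase genes, 11 had an interval below 0 in both libraries and 0 had one above it, whereas 27.3% of all genes tested were lower by this rule. The mitosis genes showed 6 lower and 5 higher, against 27.3% lower and 27.7% higher of all genes. The median log2 ratio of Ptprc-low over T cells was −0.98 in DFMO and −0.99 in water for the S phase genes, and −0.07 and 0.08 for the mitosis genes. Ube2c differed between the libraries, at −0.28 (−0.38 to −0.17) in DFMO and 0.19 (0.11 to 0.27) in water. Tyms, thymidylate synthase, was 34.9 and 41.1 CPM in Ptprc-low cells and 146 and 171 CPM in these T cells (log2 ratio −2.06 in each library). Slbp, which binds the stem-loop of histone mRNAs, was 71.7 and 84.9 CPM against 229 and 261 CPM. Cdc45 of the replicative helicase went the other way, at 38.2 and 33.0 CPM in Ptprc-low cells and 30.9 and 27.8 CPM in T cells, with intervals that include 0.

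Anln had the highest ratio of Ptprc-low over T cells in both libraries. It encodes anillin, a scaffold of the contractile ring in cytokinesis, and lies at chr9:22332012-22389188 on mm10. It stood at 102 and 71.7 CPM in Ptprc-low cells and at 66.4 and 24.7 CPM in fibroblast-like cells. In T cells outside the naive-like clusters it was 8.71 and 8.99 CPM, in NK cells 6.08 and 10.4 CPM, and in myeloid cells 7.38 and 3.99 CPM. Only 1 Anln UMI was found in the 25 germinal centre-like B cells, which held 89 UMIs of Top2a, the topoisomerase that untangles chromosomes. In the mitosis-rich cells defined next, Anln was 30.2 and 26.2 CPM in T cells and 265 and 164 CPM in Ptprc-low cells. The intervals do not overlap between the classes, but Anln is itself among the mitosis genes that define these cells. These values are therefore not independent of that cut.

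**Figure D2:**
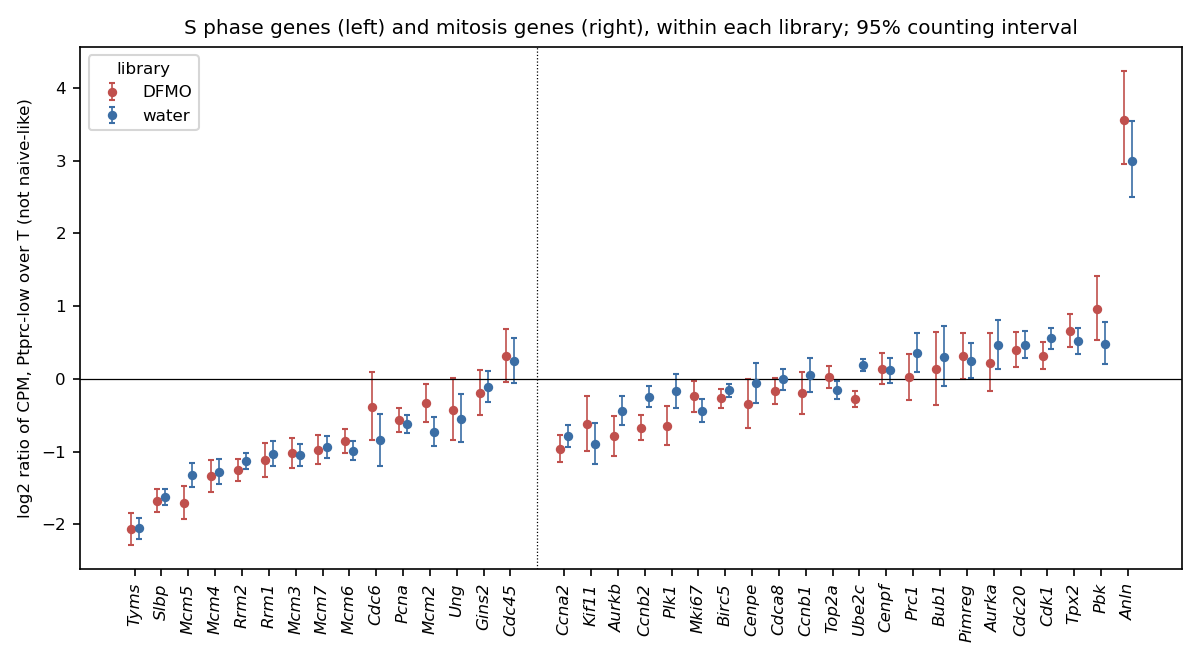
Log2 ratio of each gene's CPM in Ptprc-low cells over T cells outside the naive-like clusters, within the DFMO and within the water library; bars are 95% counting intervals. S phase genes lie mostly below 0 with medians of −0.98 and −0.99, mitosis genes lie around 0, and Anln is the highest point in both libraries.

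A sum does not say how many cells carry it, so each cell was thinned to 1000 UMIs, and cells with at least 3 mitosis UMIs among them were called mitosis-rich. This is a range and not a cell type: over all kept cells, 83 DFMO and 275 water cells had exactly 2 such UMIs, and 50 and 202 had exactly 3. Ptprc-low cells had near-equal shares, 28.3% in DFMO (159 of 562, 24.6 to 32.2%) and 28.9% in water (572 of 1979, 26.9 to 31%). Within them the shares ran from 42.1% and 41.5% in 1 cluster to 4.62% and 4.24% in another, again alike in both libraries. Among leukocytes the germinal centre-like B cells had 48.0% (12 of 25, 27.8 to 68.7%). Dendritic cells led by Xcr1 and Clec9a, the type that takes up dead cells, had 27.8% (5 of 18) and 30% (24 of 80), while the myeloid class as a whole had 2.65% and 3.75%. In the main B cell cluster of the DFMO library, resting cells that should hold little mitosis RNA, the share was 0.206% (3 of 1458). There 5.76% of thinned cells held at least 1 mitosis UMI, against 16.5% and 25.9% of NK cells.

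**Figure D3:**
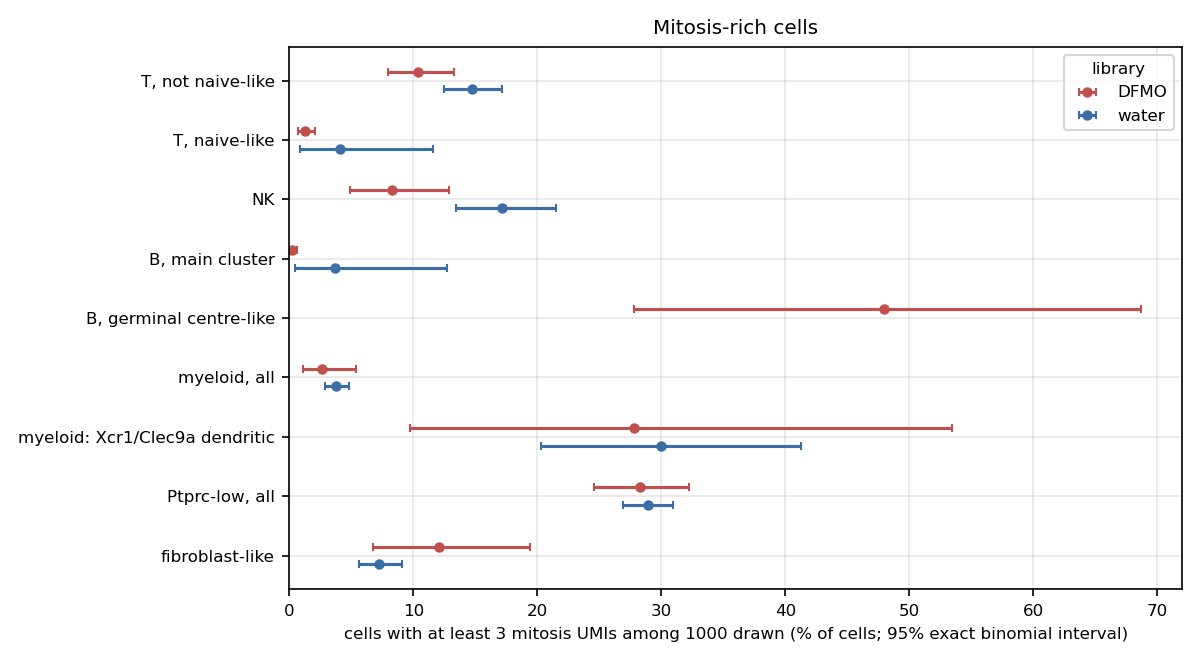
Percent of cells thinned to 1000 UMIs that hold at least 3 mitosis UMIs, by class and library, with 95% Clopper-Pearson intervals. NK cells read 8.25% in DFMO and 17.2% in water without overlap of their intervals, while Ptprc-low cells read 28.3% and 28.9%.

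NK cells of the DFMO library had lower mitosis genes than those of water, with a smaller gap in S phase genes. The mitosis sum was 1278 CPM in DFMO (1471 UMIs) and 2245 CPM in water (4334 UMIs), a log2 ratio of −0.81 (−0.90 to −0.73). The S phase sum was 1622 and 1837 CPM, a log2 ratio of −0.18 (−0.26 to −0.10). Of the 21 mitosis genes with at least 30 UMIs over both libraries, 13 were lower in DFMO by at least 1.5-fold, where 5.69% of 7669 genes tested were, and 17 had an interval below 0, where 7.37% did. None was higher by 1.5-fold or had an interval above 0, against 7.63% and 8.70% of all genes. Of the 15 S phase genes 1 was lower by 1.5-fold, Gins2 of the replicative helicase, at 35.6 and 55.9 CPM. The median log2 ratio was −0.91 over the mitosis genes, −0.16 over the S phase genes and 0.04 over all genes tested.

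Single mitosis genes of NK cells spread widely around their median. Ube2c, the ubiquitin-conjugating enzyme of the anaphase-promoting complex, was 141 CPM in DFMO and 389 CPM in water, a log2 ratio of −1.47 (−1.72 to −1.22), and 9.22% and 22% of the cells held it. Cdc20, the activator of that complex, was 33.9 and 69.9 CPM (−1.05). Plk1, the polo-like kinase of mitotic entry and spindle assembly, was 33.0 and 62.1 CPM (−0.91). The kinase that drives entry into mitosis, Cdk1, was 62.6 and 132 CPM (−1.08), and its cyclin Ccnb1 was 19.1 and 42.5 CPM (−1.15). Pimreg had the lowest ratio, 12.2 and 53.3 CPM (−2.13, −3.05 to −1.32), on 14 and 103 UMIs.

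Other mitosis genes of NK cells differed less. Ccna2, the cyclin active from S phase to early mitosis, was 95.6 and 134 CPM (−0.48). Mki67, which coats mitotic chromosomes and marks cycling cells, was 101 and 126 CPM (−0.33, −0.66 to −0.00). Top2a was 156 and 198 CPM (−0.35). For Aurkb, the kinase of the chromosomal passenger complex, for Prc1, which bundles spindle midzone microtubules, and for Pbk the intervals include 0: their CPM were 49.5 and 55.9, 40 and 43.5, and 32.1 and 33.7. Birc5 (survivin), the partner of Aurkb, was 160 and 320 CPM (−1.25 to −0.76 for its log2 ratio).

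In summed UMIs most S phase genes of NK cells were close between the libraries. The helicase genes Mcm2 (66.9 and 74.1 CPM), Mcm4 (105 and 109 CPM), Mcm5 (92.1 and 108 CPM) and Mcm6 (189 and 182 CPM) all had intervals that include 0. So did Pcna, the sliding clamp, at 164 and 184 CPM, Tyms at 126 and 146 CPM, and Rrm1 of ribonucleotide reductase at 97.3 and 106 CPM. Slbp (248 and 311 CPM, −0.33) and Rrm2 (222 and 263 CPM, −0.25) had intervals below 0. With each cell weighted alike the S phase values were further apart, at 1063 and 1351 CPM. In thinned cells 10.7% of DFMO (22 of 206, 6.81 to 15.7%) and 16.6% of water NK cells (59 of 355, 12.9 to 20.9%) held at least 3 S phase UMIs. These intervals overlap.

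Fewer NK cells of the DFMO library were mitosis-rich: 17 of 206 (8.25%, 4.88 to 12.9%) against 61 of 355 in water (17.2%, 13.4 to 21.5%). Of these cells 10 of 17 also held at least 3 S phase UMIs in DFMO (58.8%, 32.9 to 81.6%), against 18 of 61 in water (29.5%, 18.5 to 42.6%), and these intervals overlap. Cells with 0 mitosis UMIs after thinning are called mitosis-free, although their counts before thinning can hold some. Mcm6 was 3.04-fold higher in mitosis-rich than in mitosis-free NK cells of DFMO (2.23 to 4.13) and 0.926-fold in water (0.707 to 1.20). The DFMO mitosis sum rested on few cells: 6 of the 206 held 50% of its UMIs and 1 cell held 15.7%, against 18 of 355 and 4.43% in water. Without the cell with the most mitosis UMIs in each library the mitosis ratio was −0.99. The median UMIs per NK cell were 4347.5 and 4311. B cell markers in these cells summed to 78.2 CPM in DFMO (1 of 8 at 0) and 10.9 CPM in water (3 of 8 at 0), with Cd79a at 45.2 and 2.07 CPM. Monocyte or macrophage markers summed to 591 CPM (8 of 14 at 0) and 693 CPM (1 of 14 at 0), with Lyz2 at 0 and 35.2 CPM. The part of these cells' RNA in the result was not tested.

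**Figure D4:**
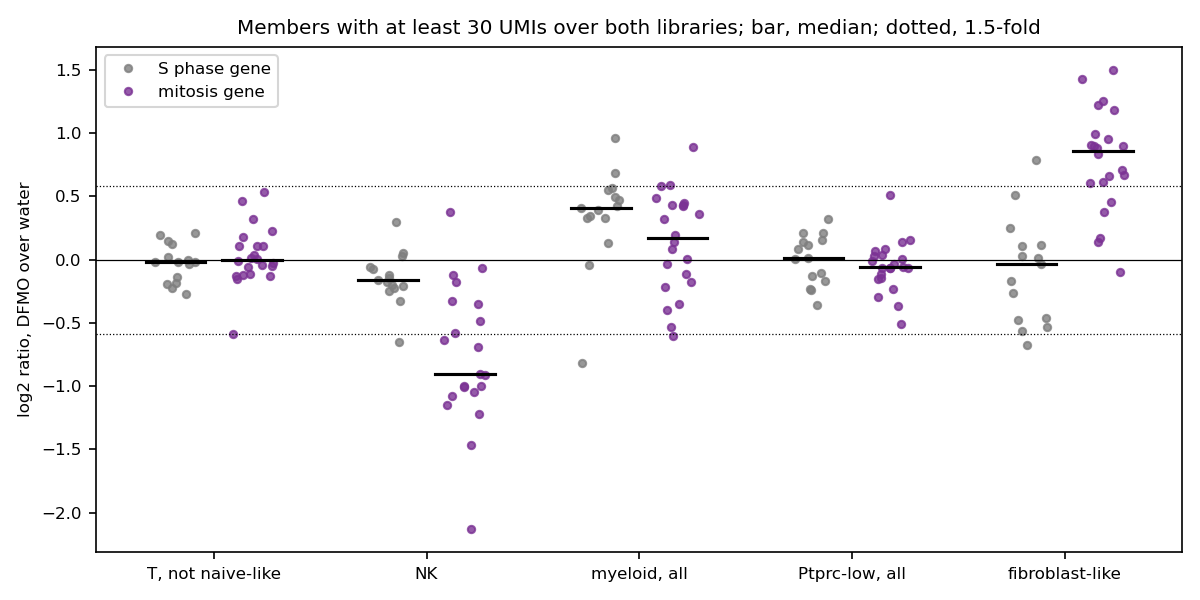
Log2 ratio of DFMO over water for each S phase gene (grey) and mitosis gene (purple) with at least 30 UMIs over both libraries, in 5 cell classes; black bars are medians and dotted lines mark 1.5-fold. Mitosis genes lie low in NK cells (median −0.91) and high in fibroblast-like cells (median 0.86), whereas S phase genes have medians of −0.16 and −0.03 there.

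Further lists of related genes, chosen by name with earlier results of these data known, were read in the same NK cells. Of 41 further kinetochore and spindle genes with at least 30 UMIs, 24 were at least 1.5-fold lower in DFMO, where 5.69% of all genes were, and 0 higher, where 7.63% were, with a median log2 ratio of −0.67. Cks1b, a small subunit of cyclin-dependent kinases, was 117 and 255 CPM (−1.12). Of 42 further genes of origin licensing and the replication fork, 3 (Mcm9, Gins1 and Prim1) were lower and 0 higher, a share near that of all genes, with a median of −0.14. Among kinase inhibitors Cdkn3, a phosphatase of Cdk1, was 29.5 and 62.1 CPM (−1.07), while Cdkn1b (p27) was 54.7 and 55.4 CPM and Cdkn2d 144 and 153 CPM. The G1 genes Ccnd2 (169 and 157 CPM), Ccnd3 (363 and 359 CPM) and Cdk4 (317 and 353 CPM) had intervals that include 0, and 0 of 9 such genes passed 1.5-fold.

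In T cells both sums were lower in the DFMO library, which also held more naive-like cells. Over all T cells the S phase sum was 1222 CPM in DFMO and 1708 CPM in water (log2 ratio −0.48, −0.53 to −0.43), and the mitosis sum was 1378 and 2032 CPM (−0.56, −0.61 to −0.51). At least 1.5-fold lower in DFMO were 5 of 15 S phase genes and 11 of 22 mitosis genes, where 9.88% of all genes tested were, and 0 were higher, where 16.3% were. The S phase genes were Gins2 (27.1 and 54.8 CPM), Tyms (88.4 and 165 CPM), Cdc6 (13.1 and 22.1 CPM), Rrm2 (138 and 227 CPM) and Slbp (171 and 259.6 CPM). However, 1098 of the 1644 DFMO cells and 87 of the 1061 water cells lay in the 2 naive-like clusters, which are led by Lef1, Tcf7 and Dapl1. Without these clusters the S phase ratio was −0.03 (−0.09 to 0.02) and the mitosis ratio 0.01 (−0.04 to 0.06), with 0 S phase genes and 1 mitosis gene lower by 1.5-fold, where 3.81% of all genes were, and 0 higher, where 7.00% were. The gene was Pbk, a mitotic kinase, at 20.6 and 30.9 CPM.

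Single genes of these remaining T cells lay close to 0 with few exceptions. Plk1 was 67.3 CPM in DFMO and 46.4 CPM in water (0.54, 0.22 to 0.86) and Ccnb2, a mitotic B-type cyclin, was 164 and 119 CPM (0.47, 0.27 to 0.67). Tyms was 146 and 171 CPM (−0.23, −0.42 to −0.04). Mki67 (92.2 and 99.8 CPM), Top2a (167 and 186 CPM), Cdk1 (113 and 118 CPM), Mcm5 (118 and 102 CPM), Pcna (163 and 168 CPM) and Rrm2 (232 and 235 CPM) had intervals that include 0. Mitosis-rich were 10.4% in DFMO (56 of 538, 7.96 to 13.3%) and 14.7% in water (136 of 926, 12.5 to 17.1%), with intervals that overlap. The DFMO cells among them were deeper, with a median of 9566 UMIs against 6532. With each cell weighted alike the mitosis values were 1006 and 1211 CPM, and in thinned cells 978 and 1302 CPM. The part of depth in these values was not tested.

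Clusters of T cells differed in how far they cycled. The cluster with Pdcd1, Lag3 and Cd8a had the highest mitosis-rich shares, 14.3% (36 of 252) in DFMO and 19.0% (88 of 462) in water. The Foxp3 cluster (regulatory T cells) had 6.32% (11 of 174) and 11.8% (22 of 187), and the Gzmk cluster 8.04% (9 of 112) and 9.39% (26 of 277). In the naive-like clusters the share was 1.23% (13 of 1060) and 4.11% (3 of 73). In the Foxp3 cluster the S phase sum was 1869 and 1492 CPM (log2 ratio 0.33, 0.21 to 0.44) and the mitosis sum 1684 and 1746 CPM (−0.05, −0.17 to 0.07). Outside the members, Cdkn1a (p21), an inhibitor that p53 turns on, was 40 and 81.5 CPM in the T cells without naive-like clusters (−1.03, −1.37 to −0.70), and Ccne1, the cyclin of S phase entry, was 30.9 and 44.4 CPM (−0.52).

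In Ptprc-low cells no member passed 1.5-fold in either direction, where 2.53% of all genes tested were lower and 4.57% higher. The S phase sum was 825 and 837 CPM (log2 ratio −0.02, −0.06 to 0.02). The mitosis sum was 1978 and 2162 CPM (−0.13, −0.15 to −0.10), and with each cell weighted alike 2029 and 2016 CPM. The median log2 ratio was 0.02 for S phase and −0.06 for mitosis genes, against 0.05 over all genes tested. Counting error is small here, with 19247 and 69132 mitosis UMIs, so small ratios of single genes have narrow intervals.

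The outermost members in Ptprc-low cells were Ube2c, 303 and 430 CPM (−0.51, −0.56 to −0.45), and Anln, 102 and 71.7 CPM (0.51, 0.40 to 0.62). Cdk1 was 141 and 174 CPM (−0.30), Aurkb 36.9 and 47.6 CPM (−0.37), Gins2 40.5 and 52.0 CPM (−0.36) and Slbp 71.7 and 84.9 CPM (−0.24). Higher in DFMO were Cdc6, the loader of the helicase, at 16.0 and 12.8 CPM (0.32), Mcm2 at 51.1 and 44.0 CPM (0.21), and Tpx2, which nucleates spindle microtubules, at 122 and 109 CPM (0.16). Mki67 (78.0 and 73.7 CPM), Top2a (170 and 167 CPM), Plk1 (43.1 and 41.2 CPM), Cdc20 (93.0 and 95.1 CPM) and Pcna (110 and 109 CPM) had intervals that include 0. Ube2c took 15.3% of the mitosis UMIs in DFMO and 19.9% in water. Among the kinase inhibitors 1 of 8 passed 1.5-fold: Cdkn1c (p57), at 20 and 8.97 CPM (1.16, 0.89 to 1.43). Cdkn2a, the p16 and Arf locus, was 63.6 and 42.6 CPM (0.58), and Ccnd1, the D-type cyclin of these cells, was 432 and 362 CPM (0.26).

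Fibroblast-like cells showed the opposite sign to NK cells in mitosis genes. The mitosis sum was 1174 CPM in DFMO (2317 UMIs) and 698 CPM in water (7566 UMIs), a log2 ratio of 0.75 (0.68 to 0.82), and the S phase sum was 409 and 436 CPM (−0.09, −0.20 to 0.01). Of 22 mitosis genes 17 were at least 1.5-fold higher in DFMO, where 6.06% of all genes tested were, and 0 were lower, where 8% were. Intervals lay above 0 for 19, against 10.5% of all genes, and below 0 for 0, against 10.6%. Of the S phase genes 1 was higher, Rrm1 at 30.4 and 17.6 CPM, and 1 lower, Mcm3 at 14.2 and 22.7 CPM. The highest ratios were those of Plk1 (44.6 and 15.8 CPM, 1.11 to 1.88 for its log2 ratio), Anln (66.4 and 24.7 CPM, 1.43) and Prc1 (37.5 and 15.7 CPM, 1.26). Mki67 was 54.2 and 28.0 CPM, Ccnb1 27.4 and 13.7 CPM, Cdc20 63.9 and 35.9 CPM, and Ccnb2 49.7 and 45 CPM.

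The gap in fibroblast-like cells rested on 116 DFMO cells. Of these, 14 were mitosis-rich (12.1%, 6.76 to 19.4%), against 65 of 901 in water (7.21%, 5.61 to 9.10%), so the shares of cells overlap in their intervals. Those 14 cells held 84.4% of the DFMO mitosis UMIs, and 6 cells held 50% of them. Joined with the Ptprc-low cells, whose Y-linked genes were also low, they gave a mitosis ratio of 0.041. When the cell cycle genes were kept in the clustering, the mitosis ratio of the fibroblast-like cells was 0.09, so this value depends on the clustering. Without the cell with the most mitosis UMIs in each library it was 0.54. Ccnd1 was 152 and 79.7 CPM (0.93) and Cdkn2a 88.7 and 52.5 CPM (0.76) in the same cells. Erythroid or platelet markers, 6 of 8 in the matrix, summed to 1.52 CPM in DFMO (5 of the 6 at 0) and 429 CPM in water (1 at 0). Epithelial markers, 8 of 9 in the matrix, summed to 2.53 CPM in DFMO (5 of the 8 at 0) and 74.8 CPM in water (0 at 0). Among them Krt18 was 0 and 19.4 CPM and Epcam 0.507 and 12.5 CPM. The part of either marker set in the result was not tested.

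Myeloid cells were mostly outside the cycle, and single clusters held much of their mitosis sum. The S phase sum was 535 and 411 CPM (log2 ratio 0.38, 0.27 to 0.48) and the mitosis sum 564 and 528 CPM (0.09, −0.01 to 0.19). In DFMO 1 cell held 12.1% of the S phase UMIs and 1 held 25.7% of the mitosis UMIs, and without the cell with the most UMIs of the list in each library the ratios were 0.25 and −0.24. Of 15 S phase genes 2 were at least 1.5-fold higher in DFMO and 1 lower, and of 22 mitosis genes also 2 and 1, where 9.06% and 5.91% of all genes were. They were Cdc6 (8.51 and 4.37 CPM), Ung (6.81 and 4.24 CPM), Top2a and Anln on the higher side and Cdc45 (5.11 and 9.003 CPM) and Ccnb2 on the lower, and only Top2a and Ccnb2 had intervals that exclude 0. Rrm2 was 60.7 and 40.9 CPM (0.57), Pcna 90.8 and 67.5 CPM (0.43), Top2a 49.4 and 32.8 CPM (0.59) and Ccnb2 23.3 and 35.4 CPM (−0.60). The 19 Xcr1 and Clec9a cells of DFMO held 708 of the 993 mitosis UMIs of their class, and 1 of those cells held 36.0% of the 708. In water 85 such cells held 2135 of 4109. Of the S phase UMIs of the class they held 360 of 942 in DFMO and 1207 of 3199 in water. In the Ccl22 and Ccr7 dendritic cells the S phase sum was 888 CPM in DFMO (203 UMIs) and 190 CPM in water (80 UMIs). There 1 DFMO cell held 56.2% of the 203 UMIs. In the Il1b cluster the mitosis sum was 29.5 CPM (13 UMIs) in DFMO and 197 CPM in water, and in the C1q and Arg1 macrophages 393 and 558 CPM. In the Hp and Chil3 monocytes it was 49.6 and 131 CPM.

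B cells allowed no comparison between the libraries beyond their counts. The DFMO library held 1519 and the water library 63. The 25 germinal centre-like cells carried 1242 of the 1679 mitosis UMIs of the DFMO B cells. Their Ube2c was 856 CPM, Birc5 585 CPM, Mki67 268 CPM, Mcm5 350 CPM and Rrm2 482 CPM. In water the mitosis sum was 858 CPM, but 2 of the 63 cells held 88.4% of its 157 UMIs. Slbp was the leading S phase gene of the main B cell cluster, at 150 and 175 CPM, where Tyms was 5.24 CPM in DFMO on 15 UMIs.

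The S phase genes differed in how closely they followed the mitosis genes from cell to cell. Because the cut was made on mitosis UMIs, only the S phase genes are independent of it. Mitosis-free cells are those without a mitosis UMI after thinning, and CPM use the counts before thinning. The 414 mitosis-free DFMO T cells outside the naive-like clusters held 45 Top2a UMIs. Before thinning, 83.0% of Ptprc-low cells held a mitosis UMI in DFMO and 80.0% in water. In T cells outside the naive-like clusters these shares were 40.5% and 42.3%. The part of this gap in the folds was not tested. Rrm2, the regulated subunit of ribonucleotide reductase (chr12:24708241-24714146), was 754 CPM in mitosis-rich and 25.5 CPM in mitosis-free T cells of DFMO outside the naive-like clusters, 29.5-fold, and 21.7-fold in water. In NK cells it was 51.1-fold and 14.5-fold, and in Ptprc-low cells 7.24-fold and 5.60-fold. Tyms was 8.72-fold and 8.30-fold in T cells and 4.95-fold and 5.22-fold in Ptprc-low cells. Cdc45 was 7.49-fold and 15.7-fold in T cells but 1.69-fold and 2.02-fold in Ptprc-low cells. The genes of the Mcm helicase ring ran from 1.58-fold (Mcm6) to 2.84-fold (Mcm3) in T cells of DFMO. Mcm6 was 1.54-fold in T cells of water and 1.53-fold and 1.22-fold in Ptprc-low cells. Mcm5 was 2.69-fold and 2.62-fold in T cells and 3.32-fold and 3.27-fold in Ptprc-low cells, above Cdc45 in the latter. Ung, uracil-DNA glycosylase, had folds of 0.226 to 0.929 in the T, NK and Ptprc-low classes of both libraries, in part on few UMIs. In T cells of DFMO its fold of 0.929 (0.361 to 2.14) rested on 8 and 24 UMIs. In NK cells of DFMO it had under 30 UMIs.

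**Figure D5:**
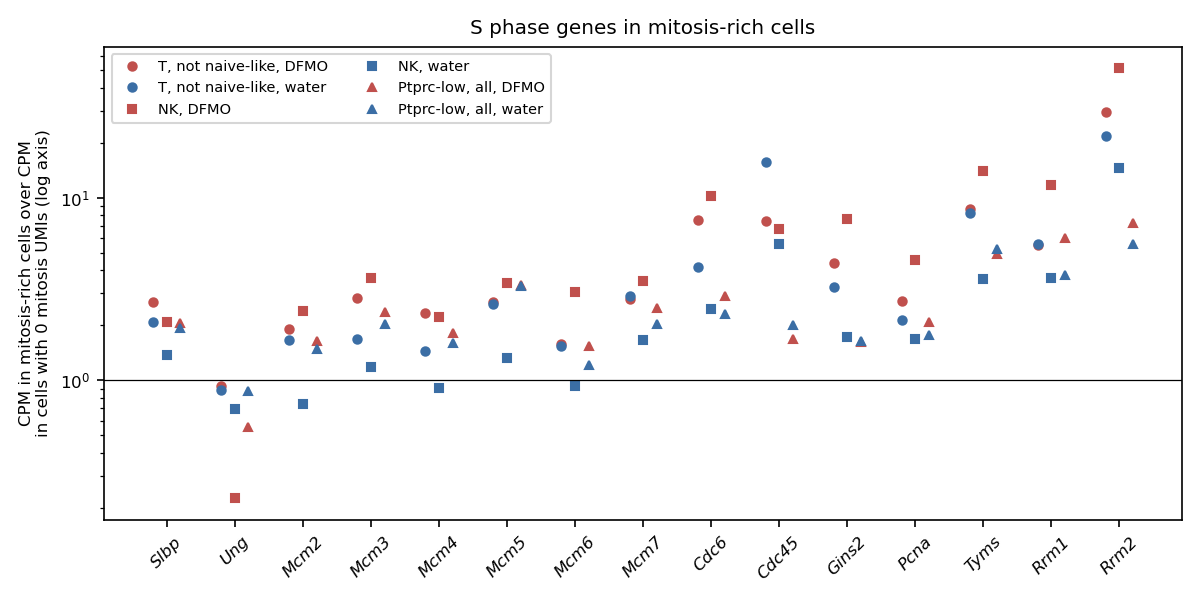
Fold of each S phase gene's CPM in mitosis-rich cells over cells with 0 mitosis UMIs after thinning, on a log axis. CPM use the counts before thinning. Circles are T cells outside the naive-like clusters, squares NK cells and triangles Ptprc-low cells, by library. Rrm2 is the highest in each class (5.60 to 51.1-fold) and Ung lies below 1 in all of them.

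Cells that passed the cut on both lists were more common among mitosis-rich T cells than among mitosis-rich Ptprc-low cells. Of the mitosis-rich T cells outside the naive-like clusters 60.7% in DFMO (34 of 56, 46.8 to 73.5%) and 62.5% in water (85 of 136, 53.8 to 70.6%) also held at least 3 S phase UMIs. In Ptprc-low cells it was 11.3% (18 of 159, 6.85 to 17.3%) and 13.8% (79 of 572, 11.1 to 16.9%). Among cells that were not mitosis-rich, the shares with at least 3 S phase UMIs were 8.09% and 9.49% in these T cells. In Ptprc-low cells they were 9.18% and 7.11%. The same cut was used in both classes, although summed S phase levels were lower in Ptprc-low cells, and the part of that level was not tested. The libraries did not differ beyond these intervals within a class, and the classes did not overlap in either library. Mitosis-rich T cells held 43.8% and 46.2% of the S phase UMIs of these T cells.

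Over all kept cells the lists pointed in opposite directions, and the sum depended on how cells were weighted. No member passed 1.5-fold, where 10.1% of all genes were lower and 17.8% higher. The S phase sum was 890 and 795 CPM (log2 ratio 0.16, 0.14 to 0.19) and the mitosis sum 1439 and 1644 CPM (−0.19, −0.21 to −0.17). With each cell weighted alike they were 656 and 720 CPM for S phase and 573 and 1142 CPM for mitosis, so the S phase difference changed sign. Mitosis-rich were 6.74% of DFMO cells (291 of 4319) and 15.5% of water cells (932 of 6017). The libraries differed in makeup: T cells were 37.2% of DFMO and 17.3% of water cells, B cells 34.4% and 1.02%, and Ptprc-low cells 12.9% and 32.5%. How much of these shares comes from the animals and how much from the Ficoll step and pooling cannot be told apart.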

How the data were processed

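Single-cell 5′ libraries were counted by the authors. The submitters' processing notes name Cell Ranger 3.02, Scanpy 1.4.4 and the build mm10, without their settings. The deposited matrix holds raw UMI counts per gene and cell (17775 genes, 10720 cells), and the deposited cell table's "Control" cells are the water library. The count sums per cell equalled the deposited table for 10720 cells.

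Cells under 200 genes (1 cell) and cells called doublets by Scrublet (51 and 97, 1.14% and 1.55%) were left out. Normalised counts of 2000 variable genes, without 288 cell cycle genes, gave 30 components, 15 neighbours and 22 Leiden clusters at resolution 1.0 (Scanpy 1.11.5). A cluster was named where at least 3 markers, and at least a 0.5 share of a list, were 2-fold above the other cells, and no other class had more markers among its 10 top genes (ties of at least 2 markers went to the class with the larger share). Clusters with Ptprc under 20 CPM and no such name were called Ptprc-low. This rule and the limit of 3 mitosis UMIs were set after the clusters were seen. Of the kept cells 86 and 226 lay in unnamed clusters and 5 and 15 in an endothelium-like one, and these were used only in sums over all cells.

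UMIs were summed per class and library and divided by the class total (CPM). Intervals are 95% Poisson for CPM, conditional binomial for ratios and Clopper-Pearson for shares. UMIs of 1 cell are not independent, so the intervals are too narrow. A gene entered a count of genes past 1.5-fold with at least 30 UMIs over both libraries. For thinning, 1000 UMIs were drawn per cell, and shallower cells were left out of the shares (102 DFMO and 133 water cells). All 37 members are accounted for. In a class, members are given with values when they have at least 100 UMIs and lie among the 3 highest or lowest ratios of their list, or belong to 12 fixed genes. Other members are named where a count or a class difference turns on them, chosen after their values were seen. The ratio and its interval were tested on simulated data. The members, lists and motifs were chosen with earlier results of these data known.

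Genome positions of genes are from GENCODE M21 (mm10) and promoters from RefSeq. Of their 31-base words, 27.7% in Ccnb1, 26.8% in Mcm7, 25.5% in Cdc20, 23.3% in Pcna, 14.8% in Plk1, 13.0% in Pbk and 12.0% in Rrm2 also occur in another annotated gene, mostly pseudogenes, so the levels of these genes are uncertain. Alternatives were a run with the called doublets, a minimum of 500 genes, TMM library sizes (edgeR 4.0.16), each cell weighted alike, thinned cells, resolution 2.0, clustering with the cell cycle genes, and leaving out the cell with the most UMIs of a list in each library.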

Additional observations from a re-analysis of the deposited data

Results flagged for a closer look

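Differences between the libraries pointed in unlike directions in different cell classes, on log2 ratios of DFMO over water whose counting intervals exclude 0. With 1 library per group the difference between classes was not tested. For the S phase sum the ratio was −0.48 in T cells, −0.18 in NK cells and 0.38 in myeloid cells. For the mitosis sum it was −0.56 in T cells, −0.81 in NK cells, −0.13 in Ptprc-low cells and 0.75 in fibroblast-like cells. The T cell values were −0.03 and 0.01 without the naive-like clusters. With each of those remaining T cells weighted alike, the mitosis values were 1006 CPM in DFMO and 1211 CPM in water. The fibroblast-like value was 0.088 with the cell cycle genes kept in the clustering, and the Ptprc-low value was 0.0095 with each cell weighted alike. The myeloid value was 0.25 without the cell with the most S phase UMIs in each library.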

How the results depend on the processing

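Of 96 alternative values of the sums (log2 ratio of DFMO over water), 55 lay within the counting interval of the reported value and 13 had the opposite sign, 6 of them where the reported interval excluded 0. Of 347 alternative values of single genes, medians and shares, 320 lay within the interval of the reported value and 28 had the opposite sign, 2 of them where the reported interval excluded 0, both with each cell weighted alike: Mcm5 in myeloid cells (−0.092) and Rrm2 in Ptprc-low cells (0.019). With each cell weighted alike the S phase sums were −0.67 in T cells, −0.35 in NK cells, 0.22 in myeloid cells, 0.050 in Ptprc-low cells and −0.13 over all cells, and the mitosis sums −1.38, −1.11, −0.097, 0.0095 and −0.996, with 0.89 in fibroblast-like cells. In cells thinned to 1000 UMIs the S phase sum was −0.72 in T cells and −0.14 over all cells, and the mitosis sums were −1.57 in T cells, −1.06 in NK cells, −0.44 in myeloid cells, 0.014 in Ptprc-low cells, −1.03 over all cells and 1.001 in fibroblast-like cells. With TMM library sizes the S phase sums were −0.57 in T cells, −0.066 in Ptprc-low cells and 0.12 over all cells, and the mitosis sums −0.65, −0.17 and −0.23. With at least 500 genes per cell, mitosis sums were −0.16 in Ptprc-low and 1.001 in fibroblast-like cells, and the S phase sum was 0.043 in fibroblast-like cells. With the cell cycle genes kept in the clustering, the fibroblast-like sums were 0.24 (S phase) and 0.088 (mitosis) and the Ptprc-low S phase sum −0.071. At resolution 2.0 the fibroblast-like mitosis sum was 0.86. Ptprc-low joined with fibroblast-like cells gave 0.037 (S phase) and 0.041 (mitosis), and T cells without the naive-like clusters −0.035 (S phase) and 0.011 (mitosis). Without the cell with the most UMIs of the list in each library the mitosis sums were −0.985 in NK, −0.242 in myeloid, −0.154 in Ptprc-low and 0.541 in fibroblast-like cells, and the myeloid S phase sum was 0.252. The cause of these shifts was not tested. The fibroblast-like values, the values without a top cell, and other limits for mitosis-rich cells, were chosen after seeing the data. No paired analysis was possible because DFMO and water have a single library apiece, and for the same reason no library could be left out.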
